A study of Homo sapiens with 4 samples.

Results

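CGAS, STING1, TBK1 and IFI16 are genes of the pathway that detects DNA in the cytosol, and their RNA was counted in 4 lines of HAP1, a human line with a near-haploid genome derived from a chronic myeloid leukaemia. They were taken by name from a panel of 785 gene probes, in which all 4 were present. The groups were 2 wild-type lines, here WT 1 and WT 7, and 2 lines carrying a MATR3 knockout, here KO 1 and KO 5, with the numbers of the labels. All lines came from 1 supplier and grew in the same serum-supplemented medium with penicillin and streptomycin, and no other treatment is given in the labels. Each knockout line is a clone, and the wild-type lines are supplier batches that the labels also call clones, so each sample stands for 1 line. Nothing in the labels says that replicate cultures were taken, so p-values measure the spread between these 4 samples, and with 2 lines a group a difference between genotypes and a difference between clones cannot be told apart. MATR3 encodes matrin 3, a nuclear protein that binds RNA and DNA. Its own expression was not analysed here, so no value checks the genotype labels. The series' title names activation of the cGAS-STING pathway, and the comparison below asks how the RNA of the pathway's components differed between the genotypes.

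As background, cGAS (the product of CGAS) binds double-stranded DNA in the cytosol and makes the cyclic dinucleotide cGAMP. cGAMP binds STING (STING1), an adaptor of the endoplasmic reticulum, which moves towards the Golgi and recruits the kinase TBK1. TBK1 phosphorylates STING and the transcription factor IRF3, which then turns on the interferon beta gene. IFI16 is a DNA-binding protein of the PYHIN family that lies mostly in the nucleus and has been described as a DNA sensor working with STING; its gene is inducible by interferon. Activation of the pathway runs through ligand binding and phosphorylation, which RNA counts do not measure.

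In the NanoString assay each RNA molecule is hybridised to a probe with a fluorescent barcode and counted as such, with no amplification step. The gene probes of a sample summed to between 448610 (KO 1) and 571767 counts (WT 7). The panel also held 8 negative control probes, which have no target in the sample; their mean was 8.50 and 10.0 counts in WT 1 and WT 7 and 7.62 counts in each knockout line. A background limit was set in each sample at the mean plus 2 SD of these probes and put on the scale of the normalised counts, which gave 25.7 and 21.1 in WT 1 and WT 7 and 19.5 and 21.7 in KO 1 and KO 5. The same negative probe was the highest in every sample, at 26 and 25 counts in WT 1 and WT 7 and 17 and 22 in KO 1 and KO 5. It raised each limit, and the other 7 probes were at 15 counts or fewer. The share of gene probes above the limit was lowest in KO 5 (409, or 52.1%) and highest in WT 7 (558, or 71.1%). Of 13 leukocyte markers in the panel, 10 were at or below the limit in all 4 samples, PTPRC (CD45) among them. CD14 and CD68 were above it in all 4 samples and CD4 in 2. These 3 were lower in both knockout lines than in both wild-type lines, as were 30.7% of the 514 genes tested below. No marker particular to HAP1 was on the lists used here. The 13 markers summed to 204.5 and 251 normalised counts in WT 1 and WT 7 and to 181 and 159 in KO 1 and KO 5, and their part in the results below was not tested.

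CGAS and TBK1 were counted far above the negative probes in every line, and both were higher in each knockout line than in each wild-type line. STING1 lay close to the background limit. IFI16 was clearly above background in WT 1 only. Probes differ in how well they capture their target, so levels were compared between lines and not between genes.

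**Figure D1:**
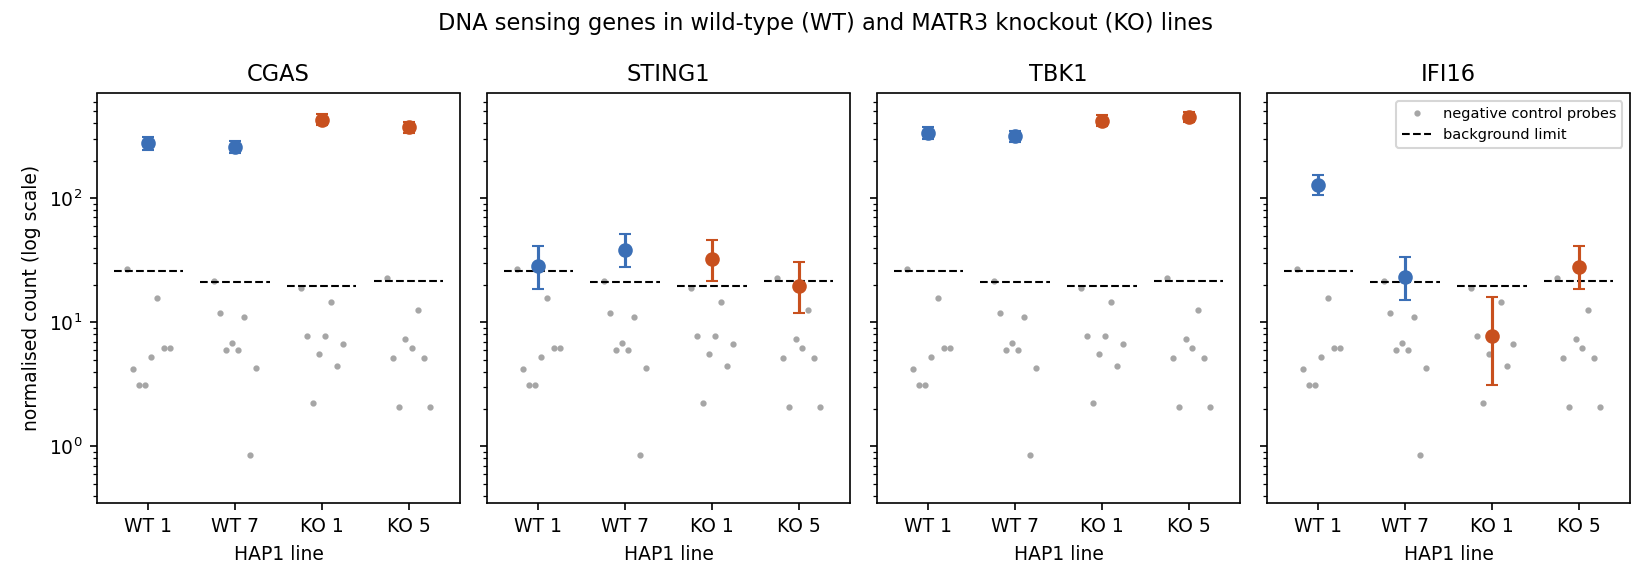
Normalised counts (log scale) of the 4 genes in WT 1 and WT 7 (blue) and KO 1 and KO 5 (orange); bars are exact Poisson 95% intervals of the count, grey points are the 8 negative control probes of that sample on the same scale and dashed lines are its background limit. CGAS and TBK1 stand far above the probes in all 4 lines, STING1 lies near the limit, and IFI16 ranges from 7.79 in KO 1 to 128 in WT 1.

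CGAS, the sensor enzyme, was at 278 normalised counts in WT 1 and 260 in WT 7, against 431 in KO 1 and 372 in KO 5. Both knockout values lay above both wild-type values, and the lower knockout line was 1.34-fold above the higher wild-type line. Before scaling these were 266, 304, 387 and 357 counts, in the same order, which is 31.3, 30.4, 50.8 and 46.8 times the mean of the negative probes of each sample. The wild type averaged 269 ± 12.3 and the knockout 401 ± 41.8 (SD, n = 2). The log2 change, a fold change on the log2 scale of knockout minus wild type, was 0.57 ± 0.12 (SE; limma adjusted p = 0.0137), a 1.49-fold rise with a 95% interval from 1.24-fold to 1.79-fold. Its adjusted p was 0.0621 without KO 1, the line with the higher value, and 0.18 under limma without the trend. Among the genes that passed the test in this direction, 18 had a larger fold change.

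TBK1, the kinase that STING recruits, was at 337 and 317 normalised counts in WT 1 and WT 7, and at 420 and 450 in KO 1 and KO 5. Here too the groups did not overlap, with the lower knockout line 1.24-fold above the higher wild-type line. The knockout lines took the opposite order from CGAS, with line 5 the higher. The unscaled counts were 323, 370, 377 and 432, in the same order of lines, or 38.0, 37.0, 49.4 and 56.7 times the mean of the negative probes. TBK1 averaged 327 ± 14.4 in wild type and 435 ± 21.2 in knockout lines (SD, n = 2), with a log2 change of 0.41 ± 0.11 (SE; limma adjusted p = 0.0411). This was a 1.33-fold rise, with a 95% interval from 1.13-fold to 1.57-fold. The call sat near the threshold: the adjusted p was 0.132 without WT 7 and 0.222 without KO 5, and it lay above 0.05 in 7 of 15 alternatives.

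Of the 514 genes tested, 42 (8.17%) passed the adjusted p of 0.05, 32 of them (6.23%) with higher and 10 (1.95%) with lower values in KO lines. The split was 54 against 8 when TBP was left out of the reference genes and 40 against 29 after cyclic loess, and without KO 1 it turned to 30 higher against 47 lower. CGAS and TBK1 were among the 32, and STING1 and IFI16 were not called. The latter lie among the 173 tested genes with a mean from 20 to 50, of which 0 were called. The groups did not overlap in 273 of the 514 genes (53.1%), and both knockout lines were above both wild-type lines in 115 of them (22.4%), so separation of the groups by itself was common on this panel. By unadjusted p, CGAS ranked 23rd and TBK1 39th of the tested genes.

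The ratio of CGAS to TBK1 within a sample does not depend on how samples are scaled. On the log2 scale it was -0.28 in WT 1, -0.28 in WT 7, 0.038 in KO 1 and -0.28 in KO 5. CGAS and TBK1 thus stood in nearly the same proportion in 3 of the 4 lines, and CGAS was higher relative to TBK1 in KO 1. The difference between the group means of this ratio was 0.16, and it came from that line.

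Over the 4 lines, the tested genes with a mean of at least 50 whose log2 profile lay nearest to that of CGAS were SIGIRR, TBP and BCL2, at Euclidean distances of 0.17, 0.18 and 0.18. SIGIRR is a negative regulator of interleukin-1 and Toll-like receptor signalling, and its log2 change was 0.47 (limma adjusted p = 0.00724). TBP, the TATA-binding protein and 1 of 10 reference genes whose mean log2 value was equal in all 4 samples to within 1.04e-05, showed a log2 change of 0.75 (adjusted p = 0.000274), and the apoptosis inhibitor BCL2 one of 0.48, which did not pass (adjusted p = 0.0746). TBK1 was 11th in the order of distance from CGAS. Nearest to TBK1 were PIK3CA and MAP2K4, at distances of 0.071 and 0.095. PIK3CA encodes a catalytic subunit of phosphoinositide 3-kinase and MAP2K4 a kinase upstream of JNK. Their log2 changes of 0.34 and 0.36 were close to that of TBK1, and MAP2K4 passed (limma adjusted p = 0.0325) while PIK3CA did not (0.0751). Each distance rests on 4 samples and 340 genes compared.

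The neighbours of CGAS and TBK1 given here did not pass the test. In the RefSeq order of genes, CGAS lies on chromosome 6 between IL17A and MAP3K7, counting only tested panel genes with a mean of at least 50, and these showed log2 changes of 0.19 ± 0.27 and 0.13 ± 0.11 (SE; limma adjusted p = 0.682 and 0.478). On chromosome 12, the gene before TBK1 in that order is CDK4, at 0.10 ± 0.077 (SE; limma adjusted p = 0.46).

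Sequences before start sites are shown for TBK1 and IFI16, because the promoter set used here held no entry for CGAS or STING1. Those genes were therefore not searched for motifs. Each run is the 250 bases before a RefSeq start site of GRCh38.p14, on the plus strand and written from 5′ to 3′, at chr12:64451870-64452119 for TBK1 and chr1:159009657-159009906 for IFI16. Capitals mark matches to the motifs searched.
TBK1: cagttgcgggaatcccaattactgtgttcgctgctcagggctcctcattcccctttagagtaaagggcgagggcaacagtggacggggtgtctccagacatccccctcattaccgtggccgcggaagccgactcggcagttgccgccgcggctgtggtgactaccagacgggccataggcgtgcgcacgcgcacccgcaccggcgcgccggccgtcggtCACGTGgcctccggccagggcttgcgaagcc
IFI16: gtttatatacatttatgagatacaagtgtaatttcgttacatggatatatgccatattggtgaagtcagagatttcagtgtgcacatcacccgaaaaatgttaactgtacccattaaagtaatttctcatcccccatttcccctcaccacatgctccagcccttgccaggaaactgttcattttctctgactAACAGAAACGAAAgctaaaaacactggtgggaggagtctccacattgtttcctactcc
The motifs, chosen with these sequences in view and searched on both strands, were AANNGAAA (a site of interferon regulatory factors), TTCNNNGAA (the gamma-activated site), CACGTG (an E-box), CCGGAAGT (an ETS site) and GGGCGG (a GC box). The TBK1 window held the E-box, from 31 to 26 bases before the start, and none of the other letters. The IFI16 window held AANNGAAA at 2 overlapping places, AACAGAAA and AAACGAAA, from 58 to 46 bases before the start, and another RefSeq start site of IFI16 had 1 match on the opposite strand. Of 35116 promoter windows of the same length, 6.34% held CACGTG and 20.3% held AANNGAAA. GC content was 66.8% for TBK1 and 40.4% for IFI16, against a median of 58.0% over all windows. These matches describe the reference sequence and show no binding in these lines.

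IFI16 differed more between the wild-type lines than any other tested gene. It was at 128 normalised counts in WT 1, 23.1 in WT 7, 7.79 in KO 1 and 28.1 in KO 5. WT 1 stood alone, 5.55-fold above WT 7 and 4.57-fold above KO 5, and the groups overlapped because KO 5 was above WT 7. The unscaled counts were 123, 27, 7 and 27, with exact Poisson 95% intervals of 102 to 147 in WT 1, 17.8 to 39.3 in WT 7 and in KO 5, and 2.81 to 14.4 in KO 1. These intervals cover counting error only. The count was 14.5 times the mean of the negative probes in WT 1, 2.70 times in WT 7 and 3.54 times in KO 5. In KO 1 it was 0.918 times that mean, with only 4 of the 8 negative probes below it. With a stricter limit at 3 SD, WT 1 was the only sample above background.

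The log2 difference between WT 1 and WT 7 was 2.42 for IFI16, the largest in size of all 514 tested genes. The next gene in the same direction was the kinase MAPK13, at 0.75. IL20, the second largest in size, had a difference of -1.28 and 14.6 and 36.8 normalised counts in WT 1 and WT 7. These comparison genes were picked after their values had been seen. The median absolute difference between the wild-type lines was 0.17. Between the knockout lines IFI16 differed by -1.73, rank 5 in size, where the median over all tested genes was 0.19.

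**Figure D2:**
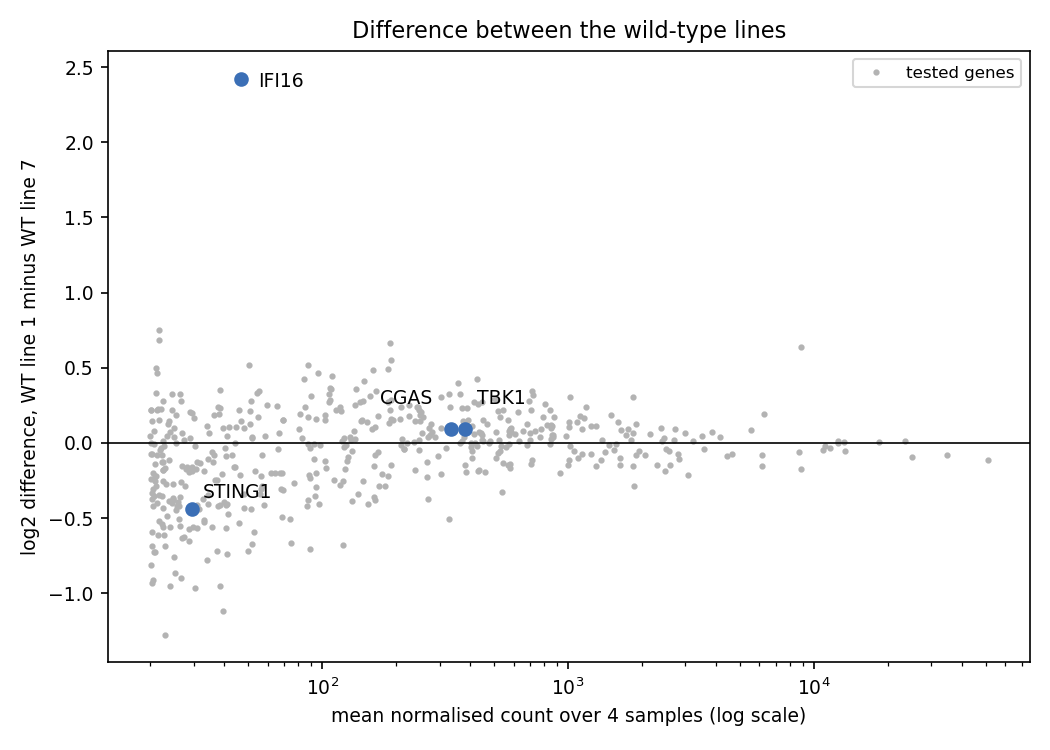
Log2 difference between WT 1 and WT 7 against the mean normalised count over the 4 samples (log scale) for each of the 514 tested genes, with CGAS, STING1, TBK1 and IFI16 in blue. IFI16, at 2.42, stands apart from every other gene, while CGAS and TBK1 lie near 0 at 0.093 and 0.090.

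IFI16 averaged 75.7 ± 74.4 in wild type and 17.9 ± 14.4 in knockout lines (SD, n = 2). Its log2 change of -1.80 ± 0.72 (SE) did not pass the test (limma adjusted p = 0.188), and its size was set by single lines. It was -0.59 without WT 1 and -3.02 without WT 7. It was -0.94 without KO 1 and -2.67 without KO 5. Each of these fits left 1 line in a group, so the spread of that group was not measured. With all 4 lines it passed when samples were scaled on the positive control probes (-1.79; adjusted p = 0.00824) or by cyclic loess (-1.44; 0.00599). IFI16 entered the test, which asked for a mean of at least 20, through the value of WT 1. On chromosome 1, the nearest tested panel genes with a mean of at least 50 on each side of IFI16 were ADAR and ATF6. They showed log2 changes of 0.079 ± 0.088 and -0.22 ± 0.12 (SE; limma adjusted p = 0.599 and 0.331). Genes with a lower mean were not counted, however near. The log2 differences between WT 1 and WT 7 of the 7 tested genes on the output list, which are known targets of the pathway, ran from -0.69 for CCL5 to 0.69 for IFIT3, and that of ISG15 was -0.015.

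STING1, the adaptor, was at 28.2 normalised counts in WT 1, 38.5 in WT 7, 32.3 in KO 1 and 19.8 in KO 5. The groups overlapped, with KO 1 between the wild-type lines. The unscaled counts were 27, 45, 29 and 19, with exact Poisson 95% intervals of 17.8 to 39.3, 32.8 to 60.2, 19.4 to 41.6 and 11.4 to 29.7. They were 3.18, 4.50, 3.80 and 2.49 times the mean of the negative probes. The background limit was passed in 3 of 4 samples, and in KO 5 the highest negative probe, at 22 counts, lay above STING1. In WT 1 the highest negative probe was at 26 counts, 1 below STING1. The highest probe was the same in all 4 lines, and STING1 was above the other 7 in each line. STING1 RNA was thus counted close to a background limit that this 1 probe raised, and RNA counts give no level of the protein.

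The means of STING1 were 33.3 ± 7.30 and 26.0 ± 8.84 (SD, n = 2), and its log2 change was -0.37 ± 0.38 (SE; limma adjusted p = 0.584). The 95% interval ran from 0.434-fold to 1.38-fold, so it held both lower and higher levels in the knockout. It is not a detection limit, and the smallest change that these 4 samples could detect at this abundance was not tested. Of the 173 tested genes with a mean from 20 to 50, STING1 and IFI16 among them, 0 were called. The 171 other tested genes with a mean from 20 to 50 had a median log2 change of -0.43, and 142 of them were lower in the knockout, against a median of 0.033 over the tested genes with a mean of 50 or more. After cyclic loess, which removes trends with abundance between samples, their median was -0.015 with 90 of them lower, and STING1 was at -0.0083 (limma adjusted p = 0.997). Their median level was 27.1 and 32.5 normalised counts in WT 1 and WT 7 and 25.6 and 18.7 in KO 1 and KO 5. STING1 stood at 1.04, 1.18, 1.26 and 1.06 times that median, and 31 of the 171 genes (18.1%) had the same order of the 4 lines as STING1. This comparison was chosen after the values had been seen, and the part of the shared shift in the STING1 difference was not tested. On chromosome 5, the nearest tested genes with a mean of 50 or more, SMAD5 and CYSTM1, showed log2 changes of 0.029 ± 0.098 and 0.13 ± 0.098 (SE; limma adjusted p = 0.889 and 0.46).

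**Figure D3:**
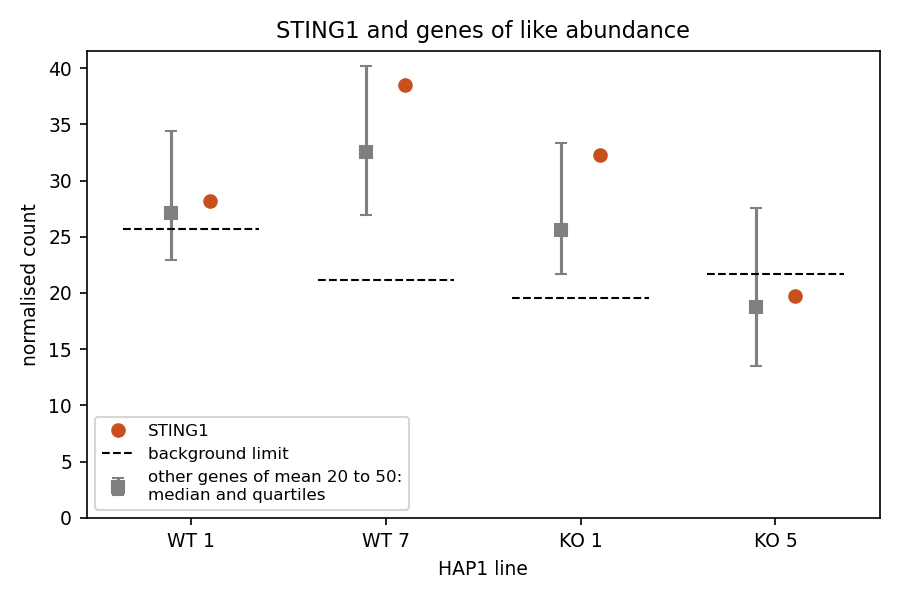
STING1 in normalised counts (orange) beside the median and quartiles of the 171 other tested genes with a mean from 20 to 50 (grey) in each line, with the background limit of the line (dashed). Both STING1 and the median of these genes were highest in WT 7 and lowest in KO 5, where each fell below the limit.

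Around these 4 genes, the pathway lists named 71 genes by role, of which 45 were in the table and 36 were tested. Leaving CGAS, STING1, TBK1 and IFI16 out, 32 were tested, 1 was called (ISG15) and 31 were not, where 8.17% of all tested genes were called. The median log2 change of the 36 was 0.0024, against -0.043 for all tested genes. Of the 36, 0 were called lower by limma or by edgeR, against 1.95% of all tested genes with either tool. At an unadjusted limma p under 0.05, 2 of the 36 (IFI16 and TANK) were lower, against 45 of all 514 (8.75%).

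Among the other sensors, HMGB1, a chromatin protein that can bind DNA outside the nucleus, was far above the limit in each line and showed a log2 change of 0.045 ± 0.095 (SE; limma adjusted p = 0.814). AIM2, the PYHIN relative of IFI16 that starts an inflammasome, was at 23.0 and 32.5 normalised counts in WT 1 and WT 7 and 23.4 and 14.6 in KO 1 and KO 5, near the limit. The endosomal DNA receptor TLR9 showed a log2 change of -0.69 ± 0.36 (SE; adjusted p = 0.313), and ZBP1, a sensor of nucleic acid in the Z form, was below the limit in all 4 samples. Of 9 nucleases and hydrolases listed, the one measured was SAMHD1, which degrades deoxynucleotides. It showed a log2 change of 0.14 ± 0.092 (SE; limma adjusted p = 0.428).

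Of the 8 adaptors tested, 0 passed with limma and 0 with edgeR at an adjusted p of 0.05, and 1 was at an unadjusted limma p under 0.05. Over all 514 tested genes these shares were 8.17%, 7.98% and 19.8%. That gene was TANK, a scaffold that binds TBK1. TANK was at 282 and 291 normalised counts in WT 1 and WT 7 and at 206 and 215 in KO 1 and KO 5, so that both KO lines lay below both WT lines, as they did in 158 of the 514 tested genes (30.7%). Its log2 change was -0.44 ± 0.12 (SE; limma adjusted p = 0.0522). Beside it, TRAF3, a ubiquitin ligase of the same complexes, was at 0.13 ± 0.13 and MAVS, the adaptor of RNA sensing, at 0.12 ± 0.14 (SE; adjusted p = 0.549 and 0.638). Of the 6 tested kinases TBK1 was the only 1 called. Its close relative IKBKE was under the filter, with 11.5 and 25.7 normalised counts in WT 1 and WT 7 and 7.79 and 10.4 in KO 1 and KO 5, and was above the limit in WT 7 alone. The kinases of the IKK complex, CHUK and IKBKB, showed log2 changes of -0.11 ± 0.13 and -0.041 ± 0.17 (SE; limma adjusted p = 0.626 and 0.92), and its subunit IKBKG one of 0.18 ± 0.13 (adjusted p = 0.46).

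IRF3, the transcription factor that TBK1 phosphorylates, was at 19.8 and 24.0 normalised counts in WT 1 and WT 7 and 34.5 and 28.1 in KO 1 and KO 5. All these values lay near the background limits, and the log2 change of 0.50 ± 0.37 (SE) did not pass (limma adjusted p = 0.46). NFKB2, a subunit of NF-kB, was at 283 and 290 in WT 1 and WT 7 and 358 and 342 in KO 1 and KO 5, a log2 change of 0.29 ± 0.11 (SE; adjusted p = 0.181). For RELA it was 0.13 ± 0.14 (SE; adjusted p = 0.594). Of the 9 tested transcription factors, 0 were called by limma and 0 by edgeR, and NFKB2 was the 1 with an unadjusted limma p under 0.05 (0.0261), with the same shares over all tested genes as beside the adaptors.

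The outputs were mostly at or near background. Of 13 in the table, 7 were tested and 5 were at or below the limit in all 4 samples, CXCL10, TNF and MX1 among them. ISG15, a ubiquitin-like protein induced by interferon, rose, with a log2 change of 1.21 ± 0.21 (SE; limma adjusted p = 0.00387) from 58.4 and 59.0 normalised counts in WT 1 and WT 7 to 119 and 157 in KO 1 and KO 5. The other 6 tested outputs, IFNB1, CCL5, IFIT1, IFIT2, IFIT3 and RSAD2, had log2 changes from -0.73 to -0.15 and did not pass. Of these, only IFIT1 was above the limit in all 4 samples, at 105 and 89.0 normalised counts in WT 1 and WT 7. It was at 87.9 and 59.3 in KO 1 and KO 5, a log2 change of -0.42. In 4 of the 7 tested outputs both KO lines lay below both WT lines, against 30.7% of all tested genes. In 1 (ISG15) both lay above, against 22.4%. The 6 changes stayed below 0 when scaling used 9 reference genes (TBP left out), equal medians or the positive control probes. These settings shift all genes nearly alike, by 0.080, 0.027 and 0.022 in the median, so no sign could turn. Cyclic loess turned IFNB1 to 0.058, IFIT2 to 0.016 and IFIT3 to 0.32. It left IFIT1 at -0.40, CCL5 at -0.28 and RSAD2 at -0.15. All but IFIT1 lie among the 171 tested genes with a mean from 20 to 50, whose median log2 change was -0.43. IFNB1, the interferon beta gene, stood at 25.7 ± 2.39 and 19.4 ± 0.919 normalised counts in wild type and knockout (SD, n = 2), near the background limit.

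**Figure D4:**
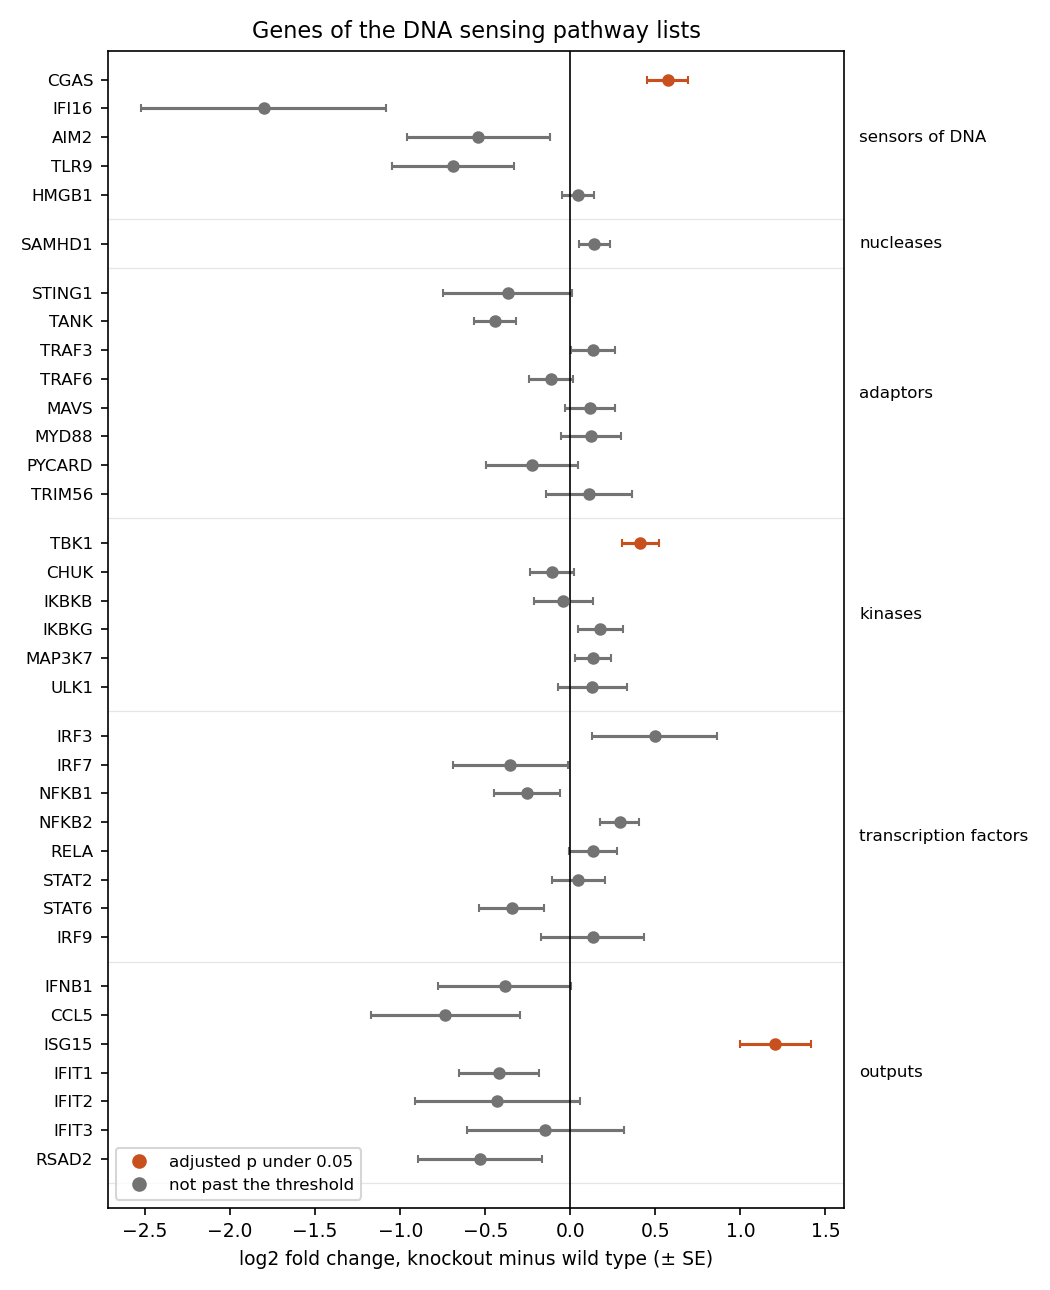
Log2 change, knockout minus wild type, with its SE, for tested genes of the pathway lists by role; orange points passed an adjusted p of 0.05 over all 514 tested genes. CGAS (0.57), TBK1 (0.41) and ISG15 (1.21) passed, all of them higher in the knockout, and IFI16 (-1.80) has the widest error.

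Precision followed abundance. The median SE of a log2 change was 0.40 for the 173 tested genes with a mean from 20 to 50, where STING1, IFI16 and IRF3 lie, and 0.11 for the 45 genes from 300 to 500, where CGAS and TBK1 lie. Of these 173 genes 0 were called, against 6 of the 45. Above a mean of 50, calls did not rise steadily with abundance. They were 11 of 61 genes from 50 to 100, 7 of 98 from 100 to 300 and 18 of 137 at 500 or more. The SE of IFI16, at 0.72, was well above that of its abundance class.

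**Figure D5:**
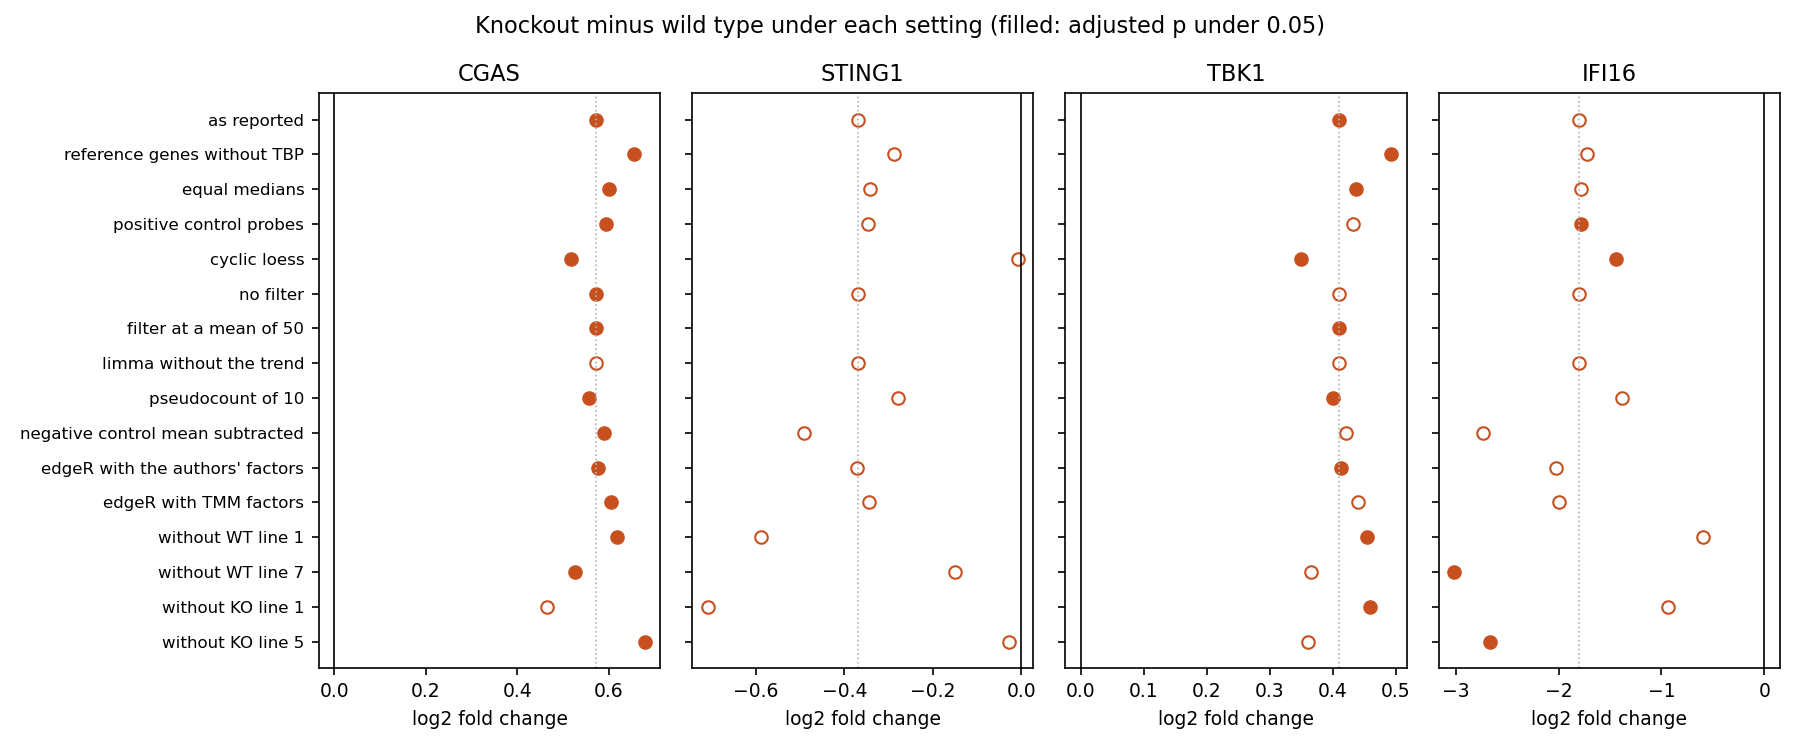
Log2 change of CGAS, STING1, TBK1 and IFI16, knockout minus wild type, as reported and under each alternative setting; filled points passed an adjusted p of 0.05 and the dotted line is the reported value. CGAS and TBK1 stay above 0 throughout, from 0.47 to 0.68 and from 0.35 to 0.49, while IFI16 ranges from -3.02, without WT 7, to -0.59, without WT 1.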

How the data were processed

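The authors deposited a normalised signal for each gene probe. Its steps showed whole counts times 1 factor per sample (100.0% of gene values of 2 or more were whole multiples within 0.006); the factors were 1.04 and 0.856 for WT 1 and WT 7 and 1.11 and 1.04 for KO 1 and KO 5. The 14 control probe values were unscaled counts, so limits were multiplied by the factor. A floor of 1.00 held 4 gene values of WT 7. R 4.1.1 is named in the submitters' processing notes; the normalisation method and any background subtraction are not given in the sources used here.

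Genes with a mean of 20 or more (514) were tested with limma 3.58.1 in R 4.3.3 (trend, no covariates) on log2(value + 1), a scale that understates changes of low genes, with Benjamini-Hochberg adjustment over all of them. Tests are two-sided. An exact permutation test of 2 against 2 lines cannot go below p = 0.333, so none was run. edgeR 4.0.16 on recovered counts was an alternative. On simulated counts limma found 79.5% of 200 genes changed 2-fold among 514, with 6 false calls. Each simulated gene took the spread of its abundance, with no spread of its own and no shift shared by low genes. Recovery was not split by abundance, so it gives no rate for genes as low as STING1 or IFI16. Named genes were the 4 members, listed pathway genes (by rule those called and up to 6 others a list), the 3 nearest profiles and the chromosome neighbours. MAPK13, IL20 and 3 further outputs (CXCL10, TNF and MX1) were named outside this rule, after their values had been seen. Some of these genes are not reported here. Of 785 panel genes, 768 matched RefSeq (GRCh38.p14). Members, lists and settings were chosen with earlier results of these data known.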

Additional observations from a re-analysis of the deposited data

How the results depend on the processing

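CGAS passed in 13 of 15 alternatives; its log2 fold change was 0.57 without passing under limma without the trend (adjusted p = 0.18) and ranged from 0.47, without KO 1, to 0.68 without single lines (adjusted p over all alternatives from 0.00186 to 0.18). TBK1 lost its call in 7 of 15: at 0.43 with positive control scaling (adjusted p = 0.0889), at 0.41 without a filter (0.0524) and under limma without the trend (0.222), at 0.42 with the negative control mean subtracted (0.0544), at 0.44 with edgeR and TMM factors (0.0527), and without WT 7 or KO 5. Without single lines TBK1 ranged from 0.36 to 0.46. Among fits of all 4 lines, IFI16 passed at -1.79 with positive control scaling (adjusted p = 0.00824) and at -1.44 with cyclic loess (0.00599). Both fits put more weight on shared variance than the reported fit. IFI16 ranged from -3.02 to -0.59 without single lines. With a limit at 3 SD it was above background in 1 sample in place of 3. STING1 was called in none of 14 alternatives, from -0.71 to -0.0083. The number of genes called, 42, became 4 under limma without the trend, 69 with cyclic loess and 29 to 77 without single lines, 77 (30 higher, 47 lower) being without KO 1. A filter at a mean of 50 left out STING1 and IFI16. A lone line left in a group is assumed to vary like the other group. The cause was not tested. No paired analysis was possible because only 1 number, 1, occurs in both groups.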
